A study of Mus musculus with 15 samples.

Results

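Heat shock proteins of the cytosol and mitochondria were measured in whole mouse pancreas after a single injection of cerulein or saline. The set holds 10 genes, chosen by name: Hspa1a, Hspa1b, Hspa8, Hspa4l, Hsph1, Hsp90aa1, Dnajb1, Hspb1, Hspd1 and Hspe1. A probe was matched to 9 of the 10 through its RefSeq accession, and none was matched to Hspa1b. The 9 genes have 14 of the 55681 probes on the array, all 14 passed the filter on dim probes, and the 9 were tested among 17338 genes.

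The 15 arrays, 1 per animal, fall into 4 groups of male C57BL/6J mice. Saline went to 4 wild type (WT) and 3 transgenic (TG) animals, and 50 µg/kg of cerulein in saline, injected intraperitoneally, to 4 of each genotype. Cerulein is a peptide that mimics cholecystokinin and, in excess, inflames the rodent pancreas. All mice had fasted for 18 h, and the treatment protocol has every animal killed 3 h after its injection, whereas saline animals are labelled 0 h. The series title links the study to betacellulin, a ligand of epidermal growth factor receptors, and to ERBB4. The sample labels name neither the transgene nor the promoter that drives it, and they give no age. The animals are numbered separately over the groups, and these numbers (WT 5 to 8 and TG 2 to 4 after saline, WT 9 to 12 and TG 13 to 16 after cerulein) are used below. The design asks how each genotype responded to cerulein, whether the genotypes differed after saline or after cerulein, and whether their responses differed.

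Heat shock proteins are molecular chaperones. Members of the HSP70 family (Hspa1a, Hspa1b, Hspa8) bind exposed hydrophobic stretches of unfolded proteins, J proteins such as Dnajb1 deliver clients and stimulate the HSP70 ATPase, and members of the HSP110 family (Hspa4l, Hsph1) exchange the nucleotide. Hsp90aa1 acts later, on near-native kinases and receptors, Hspb1 is an ATP-independent holdase, and Hspd1 with its lid Hspe1 forms the folding chamber of the mitochondrial matrix. Many of these genes are induced by heat shock factor 1 (HSF1), which binds heat shock elements, arrays of the inverted unit GAA. The acinar cell of the pancreas makes secretory protein in very large amounts and depends on chaperones for it.

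The promoters are shown first, as the sequences in which HSF1 sites would lie. RefSeq promoter windows (build GRCm38.p6, 250 bases before to 50 bases after the transcription start) were at hand for 8 of the 10 genes. A heat shock element of 2 units (GAANNTTC or TTCNNGAA, which read the same on both strands) was found in windows of 6 genes, Hspa1a, Hspa1b, Hsph1, Hspb1, Hspd1 and Hspe1, and in no window of Hspa4l or Dnajb1. It is present in 15.1% of all 32851 windows of that length and for 17.0% of all 27025 genes with a window. A 3-unit element (GAANNTTCNNGAA or TTCNNGAANNTTC, which always holds 2-unit elements) was found for 3 genes, Hsph1, Hspd1 and Hspe1. It is present in 0.603% of all windows and for 0.662% of all genes. None of the 8 genes had the letters TATAAA, which 13.6% of all windows and 15.7% of all genes hold, on either strand. The 150 bases before the start are given 5′ to 3′ on the gene's own strand, with capitals marking the heat shock elements, for 4 genes chosen to show an inducible HSP70, an HSP110, the small heat shock protein and the mitochondrial pair.
Hspa1a: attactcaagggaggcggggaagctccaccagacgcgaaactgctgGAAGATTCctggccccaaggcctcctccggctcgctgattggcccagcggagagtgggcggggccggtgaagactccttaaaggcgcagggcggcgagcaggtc
Hsph1: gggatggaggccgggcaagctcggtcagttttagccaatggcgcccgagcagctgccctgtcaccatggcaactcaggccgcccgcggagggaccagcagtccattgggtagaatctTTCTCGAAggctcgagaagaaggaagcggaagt
Hspb1: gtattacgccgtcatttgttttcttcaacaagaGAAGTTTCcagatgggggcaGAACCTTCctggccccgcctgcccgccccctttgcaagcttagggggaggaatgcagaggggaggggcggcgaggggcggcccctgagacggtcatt
Hspe1: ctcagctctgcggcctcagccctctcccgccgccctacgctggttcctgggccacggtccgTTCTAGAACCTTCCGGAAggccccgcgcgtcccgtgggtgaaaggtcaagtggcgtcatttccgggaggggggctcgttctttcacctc

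The Hspa1a stretch lies at chr17:34972157-34972306 on the minus strand, with its element starting 104 bases before the start. Hsph1 lies at chr5:149636337-149636486, minus strand, with a 2-unit element 33 bases before the start and its 3-unit element, TTCTGGAAAGTTC, 36 bases after it. Hspb1 lies at chr5:135887769-135887918, plus strand, with elements 117 and 97 bases before the start. Hspe1 lies at chr1:55087998-55088147, plus strand, and its run of 4 alternating units begins 89 bases before the start. Hspd1 and Hspe1 are neighbours on opposite strands, and a window of Hspd1 shares 285 bases with that of Hspe1, so that both genes carry the same run. The windows of Hspa1a and Hspa1b are identical at 296 of 300 positions, and 1 of the 4 differences lies in the 150 bases before the start. The coding sequences of this pair are near-identical as well. The Hspa1a probe could therefore also bind Hspa1b transcripts, and its values are uncertain as to which gene they come from.

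Levels are on a log2 scale relative to the 75th percentile of processed signal on the same array, so a level of 0 means as bright as that percentile. Differences are in log2 units with the standard error (SE) of a limma fit, and p-values are limma's, two-sided and adjusted by Benjamini-Hochberg over the 17338 genes. The arrays lie on 3 slides, and slide 2 holds only cerulein arrays (WT 11, WT 12 and TG 16). Slides 1 and 3 hold both treatments of both genotypes. Slide 1 holds 1 array of each group except transgenic cerulein, which has 2. Slide 3 holds 1 cerulein array of each genotype, 3 of wild type saline and 2 of transgenic saline. Each difference is therefore also given with slide as a block in the model (the slide-adjusted difference) and within slides 1 and 3, as differences that were not tested. From 54.9% to 76% of the probes of an array exceeded its background clearly by the scanner software's flag, the 75th percentile ranged from 152 to 529 intensity units, and no spot was saturated. All 15 acinar marker genes were well above background on every array. In whole tissue, fewer cells of a type and less RNA per cell cannot be told apart.

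Cerulein raised the same 4 of the 9 measured genes in wild type and in transgenic pancreas, namely Hspa1a, Hspa4l, Hspb1 and Hsp90aa1, and lowered none. Over all genes, 5.64% were called higher in wild type and 4.78% in transgenic mice, and 8.35% and 3.41% lower. The increases were 24.3-fold and 20.6-fold for Hspa1a, 15.3-fold and 20.3-fold for Hspa4l, 6.08-fold and 5.6-fold for Hspb1, and 3.41-fold and 3.92-fold for Hsp90aa1, wild type first. The size for Hspa1a moved by over 1.5 times with single animals and with normexp background correction (given with its values). With that correction the increase of Hspa1a was smaller than that of Hspa4l in both genotypes. Among the 9 genes, every cerulein array lay above every saline array of its genotype for these 4, and for Hspa8 in transgenic mice only. Over all genes this held for 7.35% in wild type and 9.95% in transgenic mice. The 4 were called from the same values, so their separation is no further support for the calls. The median difference over the 9 genes was 0.56 in wild type and 1.29 in transgenic mice, and over all genes it was -0.06 in both. Both comparisons of genotypes and the difference of the responses called none of the 9.

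**Figure D1:**
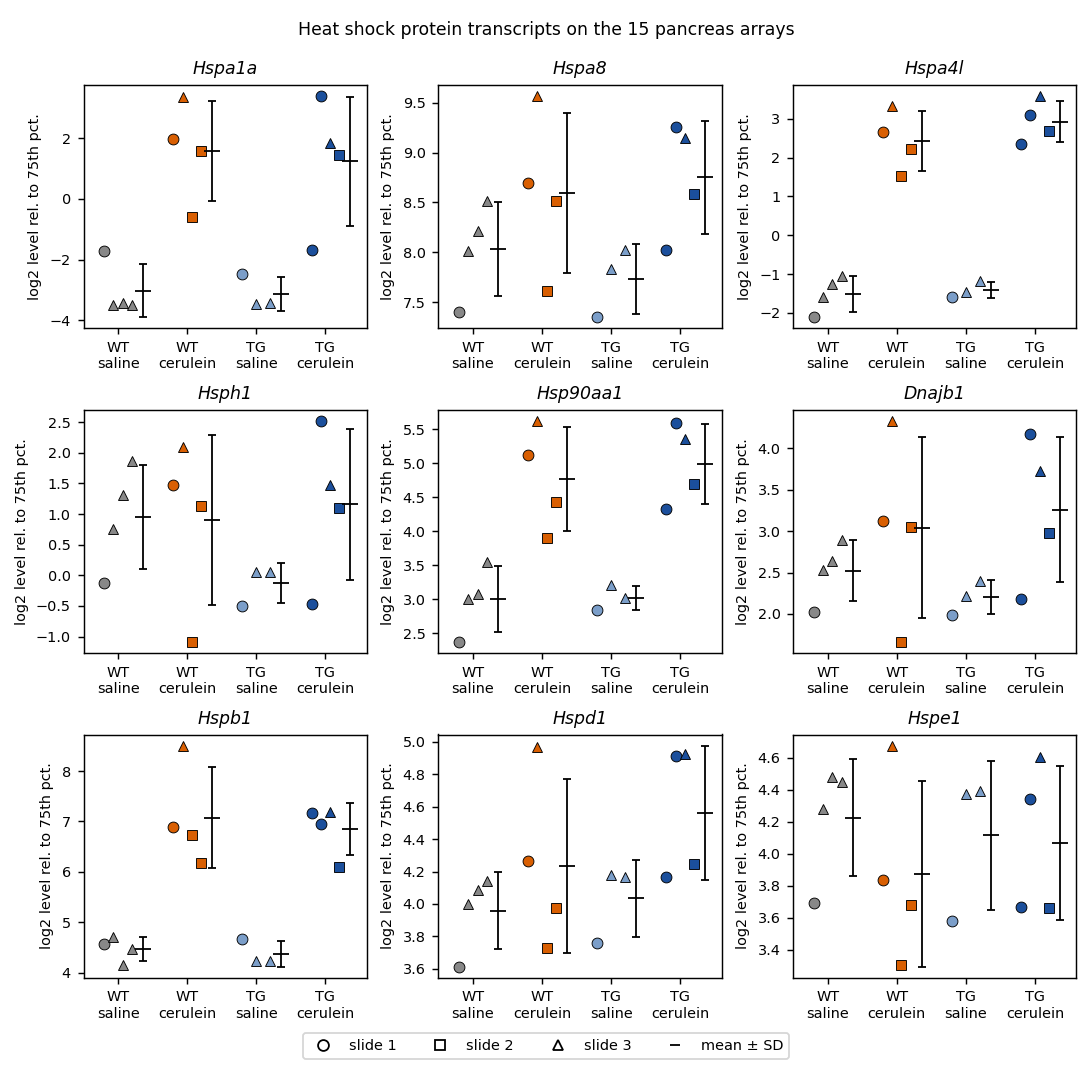
Level of each gene (log2 processed signal relative to the array's 75th percentile, brightest probe) on the 15 arrays, by group. Each point is 1 animal, its shape gives the slide, and the bar beside each group is the mean ± SD (n = 4, or 3 for transgenic saline). The cerulein points of Hspa1a, Hspa4l, Hsp90aa1 and Hspb1 lie above the saline points of their genotype, and those of Hsph1, Dnajb1, Hspd1 and Hspe1 overlap them in both genotypes.

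Among the HSP70 genes, Hspa1a encodes the stress-inducible form. In wild type mice given saline its level was -1.73 (WT 5), -3.49 (WT 6), -3.42 (WT 7, not well above background) and -3.49 (WT 8). After cerulein it was 1.98 (WT 9), 3.34 (WT 10), -0.61 (WT 11) and 1.58 (WT 12). The saline animals other than WT 5 lay close together, while the cerulein animals spread over 3.95 log2 units. The close saline values were dim, at 13.5 (WT 6), 14.9 (WT 7) and 18.0 (WT 8) intensity units, where the spread between animals is poorly measured. The difference was 4.60 ± 0.93 (adjusted p = 0.0045, limma, n = 4 and 4). It was 4.01 without WT 10, 5.33 without WT 11, 5.69 without slide 2 and 2.93 with normexp background correction, and was called in each.

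In transgenic mice Hspa1a was at -2.49 (TG 2), -3.47 (TG 3) and -3.42 (TG 4) after saline, and at -1.69 (TG 13), 3.38 (TG 14), 1.82 (TG 15) and 1.43 (TG 16) after cerulein. TG 13 lay nearest to the saline animals, and the other 3 cerulein animals lay far above them. The saline animals TG 3 and TG 4 were dim as well, at 16.1 and 17.6 intensity units. The difference was 4.36 ± 1.00 (adjusted p = 0.014, limma, n = 4 and 3), and the call was lost without saline animal TG 3 (4.19, adjusted p = 0.0661) or TG 4 (4.22, adjusted p = 0.063). It was 5.34 without TG 13, 3.65 without TG 14 and 2.85 with normexp, and was called in each. The slide-adjusted differences were 5.12 ± 1.16 in wild type and 4.59 ± 1.14 in transgenic mice. Within slides 1 and 3 they were 3.71 and 6.81 in wild type and 3.33 and 5.27 in transgenic mice, so that the increase was larger on slide 3 in both genotypes. The group means ran from -3.13 (transgenic saline) and -3.03 (wild type saline) to 1.23 (transgenic cerulein) and 1.57 (wild type cerulein), and neighbours within a treatment differed by less than their spread.

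Hspa8 encodes the constitutive cytosolic HSP70. Its brightest probe, A_55_P2080603, gave 7.40, 8.01, 8.22 and 8.52 in WT 5 to 8 after saline, and 8.70, 9.57, 7.61 and 8.51 in WT 9 to 12 after cerulein. The groups overlapped, since WT 11 lay below 3 of the 4 saline animals. Transgenic animals gave 7.35, 7.83 and 8.02 in TG 2 to 4 and 8.03, 9.26, 9.14 and 8.58 in TG 13 to 16, and these groups touched without overlapping.

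The Hspa8 difference was 0.56 ± 0.39 in wild type (adjusted p = 0.334) and 1.02 ± 0.42 in transgenic mice (adjusted p = 0.166), neither of which was called. Adding slide to the model called both, at 1.12 ± 0.32 (adjusted p = 0.0283) and 1.42 ± 0.32 (adjusted p = 0.0073). Within slides 1 and 3 the brightest probe differed by 1.30 and 1.32 in wild type and by 1.30 and 1.22 in transgenic mice. The slide 1 value in transgenic mice averages 2 unlike cerulein animals, TG 13 (8.03) and TG 14 (9.26). Slide 3 holds 1 cerulein array of each genotype, so how closely the slides match is uncertain. The other 2 probes, A_55_P2069721 and A_52_P12877, had larger differences, 0.98 and 0.79 in wild type and 1.49 and 1.51 in transgenic mice, and were not called either. With slide in the model A_55_P2069721 was called in both genotypes (1.51 and 1.87). A_52_P12877 was then called in transgenic mice (1.88) and not in wild type (1.29, adjusted p = 0.075, limma).

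Hspa4l, an HSP110 gene, separated the treatments by more than its spread within either. It was at -2.12, -1.58, -1.27 and -1.05 in WT 5 to 8 and at 2.66, 3.34, 1.52 and 2.21 in WT 9 to 12. The transgenic levels were -1.60, -1.46 and -1.18 in TG 2 to 4 and at 2.36, 3.09, 3.58 and 2.68 in TG 13 to 16. The lowest cerulein animal, WT 11, still lay well above the highest saline animal, WT 8.

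The Hspa4l differences were 3.94 ± 0.37 in wild type (adjusted p = 1.04e-05, limma, n = 4 and 4) and 4.34 ± 0.40 in transgenic mice (adjusted p = 1.13e-05, n = 4 and 3), and 3.16 and 3.62 with normexp. The slide-adjusted differences were 4.53 ± 0.26 and 4.75 ± 0.26, and the values within slides 1 and 3 were 4.78 and 4.64 in wild type and 4.32 and 4.91 in transgenic mice. Its promoter window holds no 2-unit element of the letters searched.

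Hsph1, the other HSP110 gene, showed no such separation. Its brighter probe gave -0.13, 0.76, 1.32 and 1.87 in WT 5 to 8 and 1.48, 2.09, -1.09 and 1.13 in WT 9 to 12. Among transgenic animals the levels were -0.51, 0.06 and 0.06 in TG 2 to 4 and -0.46, 2.52, 1.48 and 1.10 in TG 13 to 16. WT 11 was the lowest of all 15 arrays, and TG 13 lay among the transgenic saline animals, apart from the other 3.

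The Hsph1 difference was -0.05 ± 0.68 in wild type (adjusted p = 0.964) and 1.29 ± 0.73 in transgenic mice (adjusted p = 0.335). Without WT 11 the wild type value was 0.61, and with slide in the model it was 0.71 ± 0.74. The slide-adjusted value in transgenic mice was 1.81 ± 0.73 (adjusted p = 0.0978). None of these was called, and the second probe gave 0.18 and 1.28. Within slides 1 and 3 the brighter probe differed by 1.61 and 0.78 in wild type and by 1.54 and 1.42 in transgenic mice.

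Hsp90aa1 encodes the stress-inducible cytosolic HSP90. It was at 2.37, 3.00, 3.07 and 3.55 in WT 5 to 8 and at 5.13, 5.62, 3.89 and 4.43 in WT 9 to 12. In transgenic mice it was at 2.84, 3.20 and 3.01 in TG 2 to 4 and at 4.32, 5.59, 5.35 and 4.69 in TG 13 to 16. The saline and cerulein animals were separate in both genotypes, by the least margin for WT 8 and WT 11.

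The Hsp90aa1 differences were 1.77 ± 0.38 in wild type (adjusted p = 0.00635, limma, n = 4 and 4) and 1.97 ± 0.41 in transgenic mice (adjusted p = 0.0071, n = 4 and 3). The slide-adjusted value was 2.35 ± 0.31 in each genotype. The values within slides 1 and 3 were 2.76 and 2.41 in wild type and 2.12 and 2.25 in transgenic mice.

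Dnajb1, the main stress-inducible J protein of the cytosol, was at 2.02, 2.53, 2.64 and 2.90 in WT 5 to 8 and at 3.12, 4.33, 1.66 and 3.05 in WT 9 to 12. It was at 1.99, 2.22 and 2.40 in TG 2 to 4 and at 2.18, 4.17, 3.72 and 2.97 in TG 13 to 16. In each genotype 3 cerulein animals lay above every saline animal, and WT 11 or TG 13 did not. The differences, 0.52 ± 0.49 and 1.06 ± 0.53 (adjusted p = 0.476 and 0.262, limma), were not called. Slide-adjusted, the transgenic value was called (1.51 ± 0.47, adjusted p = 0.0361) and the wild type value was not (1.19 ± 0.47, adjusted p = 0.0997). Within slides 1 and 3 the values were 1.10 and 1.64 in wild type and 1.19 and 1.41 in transgenic mice.

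Hspb1, which also protects the actin cytoskeleton, was at 4.56, 4.71, 4.15 and 4.48 in WT 5 to 8 and at 6.88, 8.51, 6.74 and 6.17 in WT 9 to 12. In transgenic mice it was at 4.66, 4.23 and 4.22 in TG 2 to 4 and at 7.16, 6.96, 7.20 and 6.11 in TG 13 to 16. The treatments were separated by more than 1 log2 unit in both genotypes, and neither WT 11 nor TG 13 was the lowest cerulein animal here.

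The Hspb1 differences were 2.60 ± 0.40 in wild type (adjusted p = 0.00071, limma, n = 4 and 4) and 2.49 ± 0.43 in transgenic mice (adjusted p = 0.00235, n = 4 and 3). The slide-adjusted differences were 3.23 ± 0.33 and 2.83 ± 0.33. Within slides 1 and 3 the values were 2.33 and 4.06 in wild type and 2.40 and 2.97 in transgenic mice.

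Neither gene of the mitochondrial pair was called by group means. Hspd1, the chamber protein, was at 3.61, 4.00, 4.08 and 4.14 in WT 5 to 8 and at 4.27, 4.97, 3.73 and 3.97 in WT 9 to 12. In transgenic mice it was at 3.76, 4.18 and 4.16 in TG 2 to 4 and at 4.17, 4.91, 4.93 and 4.25 in TG 13 to 16. The groups overlapped in both genotypes, and the differences of 0.28 ± 0.28 and 0.53 ± 0.30 (adjusted p = 0.507 and 0.338, limma) were not called. Slide-adjusted, both were called, at 0.72 ± 0.17 (adjusted p = 0.0118) and 0.83 ± 0.17 (adjusted p = 0.00463). On slides 1 and 3 alone they were 0.65 and 0.90 in wild type and 0.78 and 0.76 in transgenic mice.

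Hspe1, the lid of the chamber, was at 3.69, 4.28, 4.48 and 4.45 in WT 5 to 8 and at 3.84, 4.68, 3.30 and 3.68 in WT 9 to 12 by its brightest probe. In transgenic mice it was at 3.58, 4.38 and 4.39 in TG 2 to 4 and at 3.67, 4.34, 4.61 and 3.66 in TG 13 to 16. Animals on slide 3 had the highest values of their group in all 4 groups, whichever the treatment. The differences were -0.35 ± 0.33 and -0.05 ± 0.35 (adjusted p = 0.472 and 0.953, limma), and the slide-adjusted differences had the other sign, 0.19 ± 0.17 and 0.35 ± 0.17 (adjusted p = 0.469 and 0.159). Hspe1 differed within slides 1 and 3 by 0.14 and 0.27 in wild type and by 0.42 and 0.22 in transgenic mice. The other 2 Hspe1 probes did the same, from -0.43 and -0.41 to 0.13 and 0.15 in wild type.

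**Figure D2:**
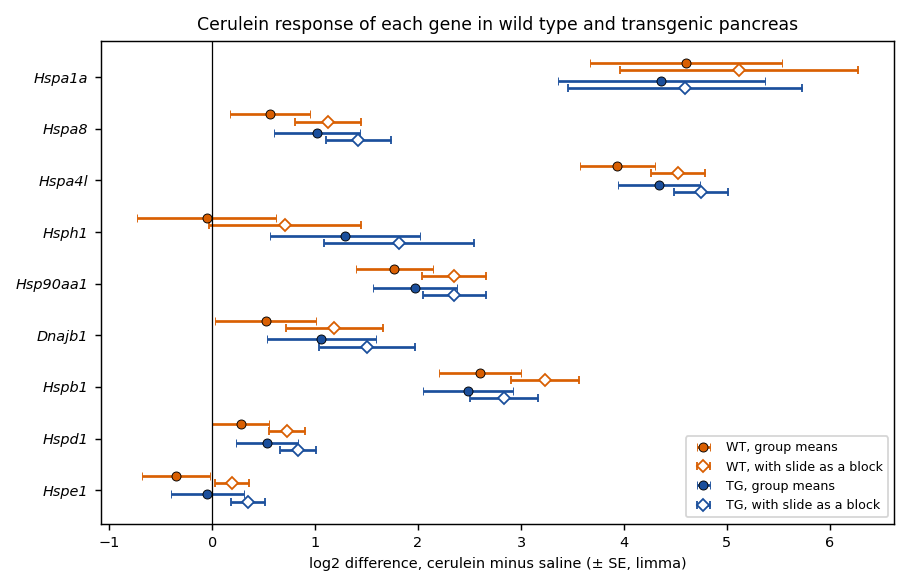
Difference between cerulein and saline (log2, horizontal axis, ± SE from limma) of each gene in wild type and transgenic mice, from the fit of group means (filled) and with slide as a block (open). Slide-adjusted values lie to the right of the others for all 9 genes in both genotypes, and Hspe1 moves from -0.35 to 0.19 in wild type.

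With slide in the model 6 of the 9 genes were called higher in wild type (13.8% of all genes) and 7 in transgenic mice (15.2% of all genes). The slide-adjusted median over the 9 genes was 1.19 in wild type and 1.81 in transgenic mice, against -0.06 and -0.07 over all genes. Within slide 1 and within slide 3 all 9 genes were higher after cerulein in both genotypes, as were 34.6% of all genes in wild type and 31.9% in transgenic mice. Saline arrays on slide 1 were the lowest of their group for 7 of the 9 genes in wild type (WT 5) and for 7 in transgenic mice (TG 2), as they were for 50.2% and 56.9% of all genes. The part that slide played in the differences of the group means was not tested beyond these fits.

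Genotype made no difference that passed the test in any of the 9 genes. After saline 0.075% of all genes were called, after cerulein 0.144%, and 0% for the difference of the responses. After saline the transgenic minus wild type differences ran from -1.09 (Hsph1) to 0.09 (Hspa4l), and after cerulein from -0.34 (Hspa1a) to 0.50 (Hspa4l). The difference of the responses ran from -0.24 (Hspa1a) to 1.34 ± 1.00 (Hsph1). The Hsph1 difference after saline had an SE of 0.73, and its transgenic animals lay below 3 of the 4 wild type animals. The lowest adjusted p of these 27 differences under any setting was 0.288, which does not show that the genotypes were alike. Of 8 fibroblast markers, 3 were higher in transgenic than in wild type pancreas after cerulein and none after saline. With slide in the model 6 and 2 were higher, against 0.513% and 0.225% of all genes. The median differences of these markers by group means were 1.69 after cerulein and 1.04 after saline. The part of these markers in the levels of the heat shock genes was not tested.

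The 9 genes often had the same cerulein animal highest or lowest, which was not tested. WT 10 was the highest wild type cerulein animal for 9 of 9 genes, and WT 11 the lowest for 8. Over all genes WT 10 was highest for 52.5% and WT 11 lowest for 31%. Among transgenic cerulein animals TG 13 was lowest for 7 of 9 genes and for 21.9% of all genes. TG 14 was highest for 5 of the 9 genes, against 8.55% of all genes, and TG 15 for 4, against 52.5%. WT 10 and TG 15 are the only cerulein arrays of their genotypes on slide 3, so animal and slide cannot be told apart for them.

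Across the 8 cerulein arrays, 4 genes followed Hspa1a closely, with p-values from an exact two-sided permutation test over pairings that were adjusted over 11 relations. Hsph1 had r = 0.949 and rho = 0.952 (exact p = 0.00124 and 0.00114, adjusted p = 0.00866 and 0.0123). Dnajb1 had r = 0.920 and rho = 0.929 (exact p = 0.00228 and 0.00223, adjusted p = 0.00866 and 0.0123). Hspa8 had r = 0.899 and rho = 0.905 (exact p = 0.00315 and 0.00456, adjusted p = 0.00866 and 0.0125). For Hsp90aa1 they were r = 0.862 and rho = 0.905 (exact p = 0.00308 and 0.00456, adjusted p = 0.00866 and 0.0125).

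The relation of these 4 genes to Hspa1a held without the 2 arrays farthest from its median, TG 13 and WT 11, where r over the remaining 6 arrays was 0.966 for Hsph1, 0.915 for Dnajb1, 0.859 for Hspa8 and 0.836 for Hsp90aa1. After each slide's mean was subtracted it was 0.960, 0.948, 0.948 and 0.969 in that order. Single slides hold too few cerulein arrays for a value of their own. These 4 relations use arrays of both genotypes, and all measurements of an array share its RNA and its scaling. How many of all genes followed Hspa1a as closely on these 8 arrays was not computed, so the relations are not shown to be particular to heat shock genes. By r with Hspa1a over all 15 arrays, Hsp90aa1 had rank 143 among all genes, Dnajb1 1013, Hspa8 1028 and Hsph1 2144.

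Hspe1 (r = 0.726, rho = 0.810), Hspd1 (r = 0.722, rho = 0.762) and Hspa4l (r = 0.696, rho = 0.643) had lower correlations with Hspa1a, as did Hspb1 (r = 0.294, rho = 0.381). Their exact permutation p-values, adjusted over the 11 relations, were 0.0858, 0.0858, 0.0873 and 0.465 for r in that order, and 0.0479, 0.0674, 0.118 and 0.36 for rho. The Hspe1 relation thus passed 0.05 by rank and not by r, and the other 3 passed by neither. Without TG 13 and WT 11 they had r of 0.685, 0.741, 0.501 and 0.740, and after subtraction of slide means 0.877, 0.778, 0.692 and -0.11. The differences between these correlations were not tested.

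Tissue markers and array brightness were set against Hspa1a in the same 8 arrays. The summed acinar markers had r = 0.477 and rho = 0.667 (exact permutation p = 0.234 and 0.0831), the summed neutrophil markers r = 0.400 and rho = 0.405 (exact p = 0.321 and 0.327), and the array's 75th percentile r = -0.437 and rho = -0.667 (exact p = 0.279 and 0.0831). Without TG 13 and WT 11 r was 0.672, 0.463 and -0.658, and with slide means subtracted it was 0.282, -0.105 and -0.184. Adjusted over the 11 relations, these p-values were 0.322, 0.353 and 0.341 for r and 0.114, 0.36 and 0.114 for rho.

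**Figure D3:**
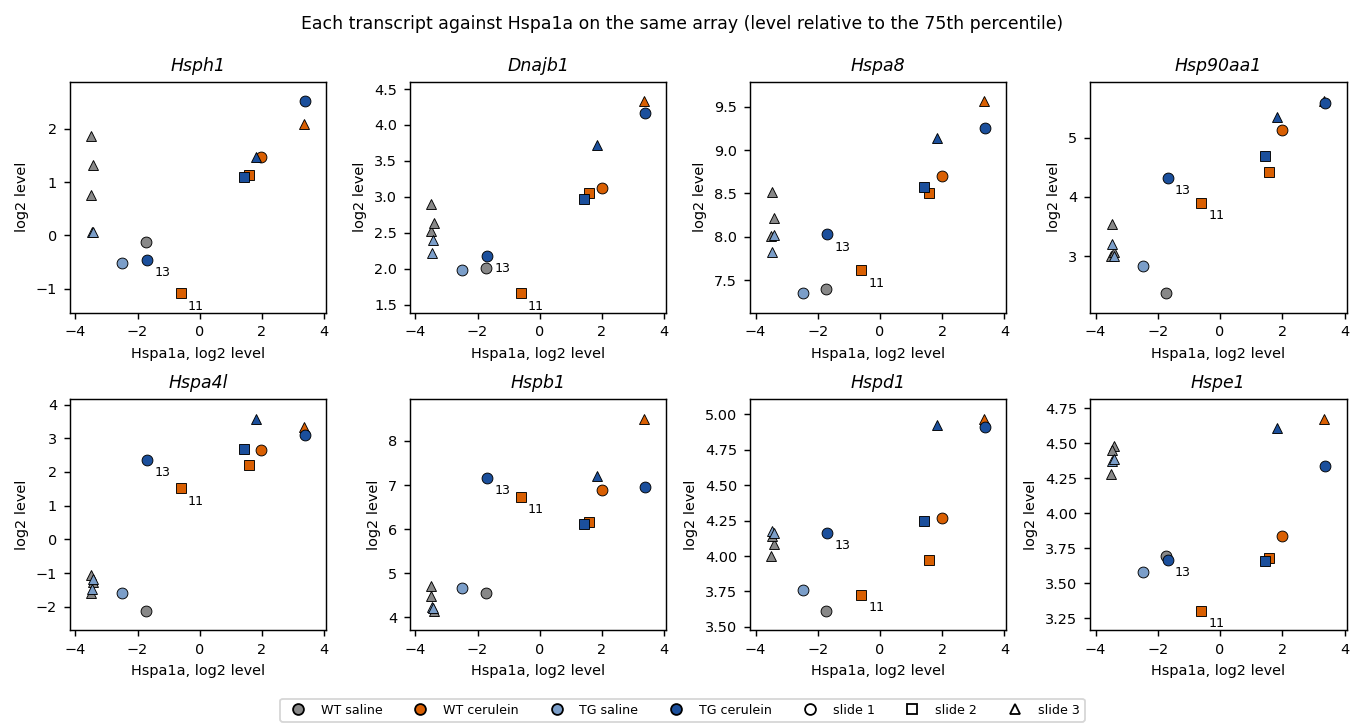
Level of each gene (vertical axis, log2 relative to the 75th percentile) against the level of Hspa1a on the same array (horizontal axis), 15 arrays, coloured by group and shaped by slide. WT 11 and TG 13 are numbered: they sit low among the cerulein arrays in Hsph1, Dnajb1 and Hspa8, but among the other cerulein arrays in Hspb1.

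Over all 15 arrays, where saline and cerulein arrays form separate clusters, the genes most like each member are given as a description, out of 17338 genes. Hspa8, Dnajb1 and Hsph1 shared a neighbour, the J protein Dnaja1 (r = 0.979, 0.974 and 0.900 over 15 arrays). The gene most like Hsph1 was Chordc1, an HSP90 cochaperone (r = 0.947), and the one most like Hspd1 was Hsp90ab1, the constitutive HSP90 (r = 0.963). The closest to Hspa4l was the tropomyosin gene Tpm4 (r = 0.996), followed by Zyx, which encodes the focal adhesion protein zyxin, and the ubiquitin ligase gene Trim13. Hspb1 was closest to the syndecan gene Sdc4 (r = 0.977), Hspa1a to the keratin gene Krt17 (r = 0.954), Hsp90aa1 to Vwa5a (r = 0.983) and Hspe1 to the proteasome gene Psmc3 (r = 0.968).

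Some single genes among the other chaperones were called as well, by lists that were chosen with earlier results of these data known. Of the 9 small heat shock proteins other than Hspb1, Hspb8, which works with Bag3 in the disposal of misfolded proteins, rose by 2.90 ± 0.26 in wild type and 3.19 ± 0.28 in transgenic mice (adjusted p = 7.76e-06 and 8.86e-06, limma). Hspb3, a muscle form, fell by 1.13 ± 0.31 in transgenic mice (adjusted p = 0.0357), and the other 8 in wild type and 7 in transgenic mice were not called. Of 10 cytosolic J proteins, Dnajb2 rose in both genotypes (1.94 ± 0.32 and 2.51 ± 0.35, adjusted p = 0.00129 and 0.000459) and Dnajb4 in wild type (1.27 ± 0.40, adjusted p = 0.0456). The median difference was -0.02 and -0.08 over the small heat shock proteins and 0.13 and 0.35 over the J proteins. With slide in the model 4 and 6 of the J proteins were called higher, and 1 lower in transgenic mice, and of the small heat shock proteins 2 rose in each genotype and 2 fell in transgenic mice. Over all genes, 5.64% and 4.78% were called higher by group means and 8.35% and 3.41% lower, wild type first. With slide in the model 13.8% and 15.2% were called higher and 7.79% and 8.35% lower. These shares also apply to the counts of the lists below, by group means and with slide in the model.

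Of 20 cochaperones of HSP70 and HSP90, 3 rose and 1 fell in wild type, and 2 rose and 1 fell in transgenic mice, with medians of -0.24 and 0.14. The slide-adjusted counts were 5 higher and 1 lower in wild type and 7 higher and 1 lower in transgenic mice, with medians of 0.15 and 0.38. Bag3, a nucleotide exchange factor of HSP70, rose by 1.22 ± 0.33 and 1.74 ± 0.35 (adjusted p = 0.0231 and 0.00638, limma). Unc45a, a myosin and HSP90 cochaperone, rose by 1.00 ± 0.24 and 1.13 ± 0.26 (adjusted p = 0.0136 and 0.0147). Fkbp5, an immunophilin of steroid receptor complexes, rose in wild type by 1.19 ± 0.35 (adjusted p = 0.038). Bag4, which also binds HSP70, fell by 1.97 ± 0.29 and 1.70 ± 0.31 (adjusted p = 0.000467 and 0.00325).

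Of the other heat shock genes outside the chaperone families, Sqstm1 and Zfand2a rose in both genotypes, and 3 others were called in neither, with differences from -0.68 to 0.16 in wild type and from -0.45 to 0.33 in transgenic mice. Sqstm1, the autophagy receptor p62, rose by 1.16 ± 0.34 and 1.65 ± 0.37 (adjusted p = 0.0351 and 0.0111, limma), and Zfand2a, an arsenite-inducible proteasome regulator, by 0.94 ± 0.24 and 1.05 ± 0.26 (adjusted p = 0.019 and 0.0223).

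No list of constitutive folding machines rose in the fit of group means, but TRiC and prefoldin rose in part with slide in the model. Among 6 other HSP70, HSP110 and HSP90 genes only Hspa14 was called, and it fell in wild type (-0.94 ± 0.24, adjusted p = 0.018, limma). With slide in the model Hspa4 and Hsp90ab1 were called higher in both genotypes (0.72 and 0.56 in wild type, 0.65 and 0.76 in transgenic mice), and Hspa14 was still called lower in wild type. Of 14 subunits of the TRiC chaperonin and prefoldin, which fold actin and tubulin, Pfdn6 fell in wild type (-0.84 ± 0.25, adjusted p = 0.0403) and none was called in transgenic mice. With slide in the model 5 of these 14 were called higher in wild type and 9 in transgenic mice, and Pfdn6 was no longer called. None of 17 mitochondrial chaperones and proteases was called in either genotype. With slide in the model 2 and 3 were called higher, which is near the share of all genes (13.8% and 15.2%). The medians were 0.09 and -0.17 for the first of these lists, -0.11 and 0.17 for TRiC and prefoldin, and -0.36 and -0.14 for the mitochondrial list. Slide-adjusted, they were 0.05 and -0.19, 0.28 and 0.50, and 0.06 and 0.11 in that order. None of 4 measured genes of HSFs and their binding protein was called, and 1, Hsf1, was called higher with slide in the model in both genotypes (0.49 and 0.67).

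Chaperones of the endoplasmic reticulum (ER), which fold the secretory proteins, went the other way in wild type mice, where 7 of 16 fell and none rose. Over all genes, 8.35% were called lower in wild type. The 3 with the largest decrease were Pdia4, a protein disulphide isomerase (-1.59 ± 0.36, adjusted p = 0.0101, limma), Dnajc3, a J protein partner of the ER HSP70 (-1.59 ± 0.33, adjusted p = 0.00521), and Calr, the lectin chaperone calreticulin (-1.51 ± 0.30, adjusted p = 0.00428). In transgenic mice none of the 16 was called, with a median of -0.52 against -1.07 in wild type, and no gene's response differed between genotypes by the test of that difference. With slide in the model 6 fell and 2 rose in wild type, and 2 fell and 2 rose in transgenic mice. The slide-adjusted medians were nearer to no change, at -0.56 in wild type and -0.21 in transgenic mice.

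Markers of other cells were read beside these lists. Of 7 measured neutrophil markers 4 rose in wild type and 1 in transgenic mice, with or without slide in the model, while their summed log2 level, which also holds the bright markers that did not rise, ranged from 6.65 to 7.51 in wild type saline and from 6.27 to 7.50 in wild type cerulein animals. Of the 15 acinar markers 1 fell in wild type and none in transgenic mice, and with slide in the model 1 and 4 fell. Their summed log2 level ranged from 14.66 to 15.41 in wild type saline and from 13.91 to 15.05 in wild type cerulein animals, and from 14.51 to 15.11 and from 13.59 to 14.60 in transgenic animals. The part of such shifts in the levels of the heat shock genes was not tested.

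**Figure D4:**
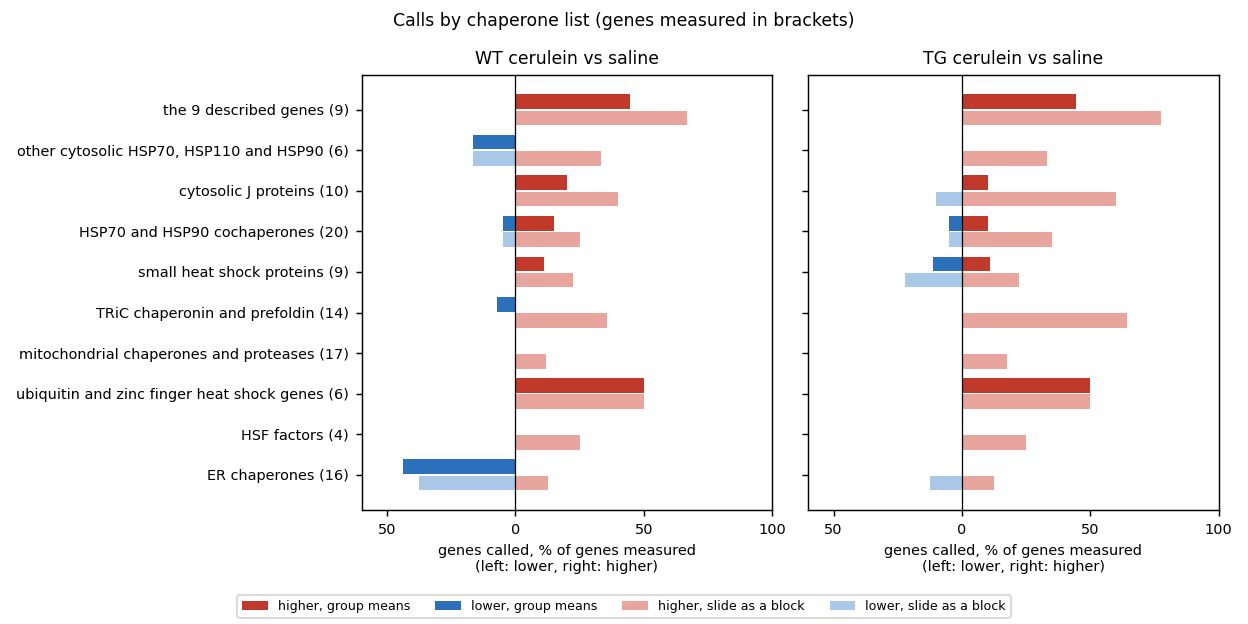
Share of the measured genes of each chaperone list (number measured in brackets) called higher (right) or lower (left) after cerulein, in percent, for wild type and transgenic mice, with group means (dark) and slide as a block (pale). Of the 9 described genes 4 were called higher by group means in both genotypes, and of the ER chaperones 7 of 16 were called lower in wild type.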

How the data were processed

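Total RNA of whole pancreas, 1 animal per array, was labelled with Cy3. The authors obtained spot intensity values with Agilent Feature Extraction 10.7.3.1, which subtracted background within each array, per the file headers; its 0 or 1 flags (background, saturation, outliers) are deposited beside them. The deposited series table holds log2 values of the authors, with array medians of 6.56 to 6.94 and r of 0.987 to 0.998 across probes with the scanner signals; its normalization is not given in the sources used here, and it served as an alternative.

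Control spots and outlier spots were left out (105 to 188 of 59305 spots on an array), spots of a probe were averaged as log2 values, and the array's 75th percentile over 55681 probes was subtracted. Accessions named 27235 probes by a RefSeq table and left 28446 unnamed. Probes well above background on at least 3 arrays were kept (42181), and a gene was read from its brightest kept probe. Limma 3.58.1 in R 4.3.3 (lmFit and eBayes on 4 group means, 15 arrays, 11 residual degrees of freedom) tested 5 comparisons, with a call at an adjusted p below 0.05, and the script was tested on simulated data. Member probes were fitted among all kept probes in the same way. Slides come from the array barcodes in the file headers. The normexp alternative (offset 50) used median spot signals in place of the planned mean signals, which are not among the columns used here. Other alternatives were quantile normalization, other filters on dim probes, the mean of a gene's probes, the series table, slide as a block, no slide 2, and leaving out each array. The number of arrays limits the precision.

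Members and lists were chosen with earlier results of these data known. All members are named. Of each other chaperone list the called genes are named where there are 4 or fewer in a direction, otherwise the 3 with the largest change, and for each member the 3 genes of highest Pearson r over the 15 arrays were taken, of which the closest are given. The result of 1 gene that this rule names is not reported here. Genes called only with slide in the model, the marker lists given and the fits of Hsf1 were described after their values were seen. Relations over cerulein arrays were computed in Python 3.11.15. Promoter letters are RefSeq's, GRCm38.p6, and were read as given.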

Additional observations from a re-analysis of the deposited data

Results flagged for a closer look

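In 3 of 42 groups of 4 arrays, 1 value stood apart from the other 3 by more than Dixon's 95% limit, or 7.14%, and chance gives about 1 in 20. All 3 were wild type saline animal WT 5, the only one of its group on slide 1. Its Hspa1a level was -1.73 (probe A_55_P2068459), above the other 3, which lay from -3.49 to -3.42. Its Hspe1 level was 1.54 by probe A_55_P1953063, below 2.08 to 2.13 in the others, and 3.45 by probe A_55_P2089358, below 4.15 to 4.24. On slide 1 the transgenic saline animal TG 2 also had a higher Hspa1a level (-2.49) and lower Hspe1 levels (1.47 and 3.40) than the transgenic saline animals of slide 3. The part of slide was not tested apart from animal.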

How the results depend on the processing

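The 4 calls in wild type and the 4 in transgenic mice were 4 with normexp, without a filter, with the mean of a gene's probes and with the series table, 3 where a probe had to be well above background on all arrays (Hspa1a was then not tested), and 6 with quantile normalization. With slide as a block they were 6 in wild type and 7 in transgenic mice. Leaving out each array gave 4 to 4 in wild type and 3 to 4 in transgenic mice. No setting called a genotype difference, and 19 of 27 genotype differences changed sign in some setting. Without slide 2 the calls were the same 4 genes in both genotypes.

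Signs of uncalled values turned. The Hsph1 difference in wild type was -0.05, and it was 0.041 with normexp, 0.065 with the mean of probes, 0.049 with the series table, 0.71 with slide as a block (also by probe A_55_P2176963), 0.83 without slide 2, and from -0.45 to 0.61 with each array left out. For Hspe1 in wild type it was 0.19 with slide as a block and 0.031 without slide 2. For Hspe1 in transgenic mice it was 0.17 with normexp, 0.058 with quantile normalization, 0.0398 with the series table, 0.35 with slide as a block, 0.089 without slide 2, and from -0.31 to 0.092 with each array left out. By probe with slide as a block, Hspe1 gave 0.13 and 0.29 (A_55_P1953063), 0.15 and 0.29 (A_55_P2089358) and 0.19 and 0.35 (A_66_P124952), wild type first. The cause was not tested.

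Normexp moved the median of all genes from -0.06 to -0.23 in wild type and to -0.20 in transgenic mice. Higher genes made up 40.3% of all calls in wild type by group means, 29.1% with normexp, 63.9% with slide as a block and 71.2% without slide 2. No paired analysis was possible because the animals' numbers are unique over the groups.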
